A study of Mus musculus with 30 samples.

Results

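The genes described here are 9 genes of fatty acid handling that centre on the nuclear receptor PPAR-gamma: Pparg, Cd36, Fabp3, Fabp4, Fabp5, Lpl, Plin2, Acsl1 and Cpt1a. They were chosen by name, as the rows of the count table whose Ensembl identifier maps to these symbols, and make up 9 of the 54532 genes in the table. The cells were grown from the marrow of mouse tibia and femur, from wild-type (WT) mice and from Nlrx1-deficient mice (KO), with GM-CSF for 6 days and a change of medium on day 3. Both genotypes were plated in 24-well plates and given viable conidia, the spores of the mould Aspergillus fumigatus (strain AF29), for 3, 6, 9 or 12 h, or were taken before the challenge (0 h). There were 10 such groups, 1 for each genotype at each time, with 3 libraries apiece. Every group, the controls included, shares the GM-CSF culture, the labels do not say which part of Nlrx1 is missing, and neither the age nor the strain of the mice is given. Whether replicate libraries stem from different mice or cultures is not labelled, so the p-values below measure the spread between these libraries, which may be technical.

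PPAR-gamma binds DNA as a dimer with the retinoid X receptor and switches on genes of fatty acid uptake, storage and use when it binds fatty acids or their oxidised products. In these genes' textbook roles, lipoprotein lipase (Lpl) frees fatty acids from lipoproteins, the scavenger receptor CD36 takes them up, and small binding proteins (Fabp3, Fabp4, Fabp5) carry them through the cytosol. Acsl1 couples a fatty acid to coenzyme A, Cpt1a passes it into mitochondria for oxidation, and perilipin 2 (Plin2) coats the lipid droplets in which it is stored. Macrophages and dendritic cells grown in GM-CSF are known to use this programme, which is also typical of adipocytes and of alveolar macrophages.

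The libraries held 1722384 to 3509429 counted reads, with a median of 2492886. Nlrx1 itself had 13 to 46 reads in the 15 WT libraries and 0 to 14 in the 15 KO libraries. The 11 dendritic markers summed to 2567 to 3627 reads per 1000000 scaled reads (CPM). Itgax, at 1164 to 1409 CPM, and Cd74, at 625 to 1480 CPM, were the highest of them. H2-Ab1 (238 to 354 CPM), H2-Aa (183 to 270) and Irf4 (57.3 to 160) followed. Much lower were Ccr7 (6.64 to 52.3 CPM), Zbtb46 (6.64 to 24.0), Ciita (5.57 to 21.4), Cd86 (3.88 to 26.2) and Batf3 (11.1 to 25.2). Flt3 lay at 0 to 2.46 CPM. The 10 macrophage markers summed to 1614 to 3138 CPM and the 10 neutrophil markers to 796 to 1732 CPM. The 7 adipocyte markers summed to 0 to 3.10 CPM, with Cidec and Cfd at 0 in all libraries. The libraries are bulk RNA, so fewer cells of a type and less RNA per cell cannot be told apart.

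The promoters are shown because the members share a regulator in textbook accounts but did not move in 1 direction here. RefSeq start sites on GRCm38.p6 gave 9 windows of 250 bases upstream of a start for 6 of the 9 members; Fabp4, Fabp5 and Lpl have no entry. PPAR-gamma and its partner bind a pair of half-sites with the letters AGGTCA that are 1 base apart (a direct repeat called DR1). Plin2 and Cd36 are printed because they differed between the genotypes in opposite directions, and Acsl1 as a window without a half-site; capitals mark AGGTCA on either strand (TGACCT on the printed strand) and any stretch with at least 10 of the 12 letters of the direct repeat.
Plin2, GRCm38.p6 chr4:86670060-86670309, minus strand: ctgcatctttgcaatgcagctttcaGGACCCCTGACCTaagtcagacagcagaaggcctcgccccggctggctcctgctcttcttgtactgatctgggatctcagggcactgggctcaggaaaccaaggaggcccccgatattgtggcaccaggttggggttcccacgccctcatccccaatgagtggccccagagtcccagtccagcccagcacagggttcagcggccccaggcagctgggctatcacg
Cd36, GRCm38.p6 chr5:17835897-17836146, minus strand: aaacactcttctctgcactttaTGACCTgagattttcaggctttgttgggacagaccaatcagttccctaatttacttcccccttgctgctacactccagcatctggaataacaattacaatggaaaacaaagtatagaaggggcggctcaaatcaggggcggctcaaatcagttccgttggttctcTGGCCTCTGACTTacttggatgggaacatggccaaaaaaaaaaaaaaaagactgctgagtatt
Acsl1, GRCm38.p6 chr8:46470787-46471036, plus strand: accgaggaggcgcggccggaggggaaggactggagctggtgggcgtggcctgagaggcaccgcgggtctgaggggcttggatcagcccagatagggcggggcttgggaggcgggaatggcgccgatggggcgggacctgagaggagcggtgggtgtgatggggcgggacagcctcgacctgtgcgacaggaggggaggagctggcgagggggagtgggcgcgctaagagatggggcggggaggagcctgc

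The half-site AGGTCA, searched on both strands, lay in 5 of the 9 windows, those of Plin2, Cd36, Cpt1a and 2 of the 3 Pparg starts, against 14.02% of all 32851 windows of this length. In Plin2 the half-site ran from base -218 to -213 before the start and formed part of the stretch with 10 of the 12 letters. In Cd36 the half-site lay from -228 to -223, apart from its own stretch of 10 letters. Such a stretch was found in 3.24% of all windows, and the complete repeat, with all 12 letters, in 0.0335%. The complete repeat was in none of the 9 windows of the members, and the windows of Fabp3 and the other Acsl1 start held no half-site. A match of letters is a description of these windows and does not show binding.

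At rest and after challenge the members covered a wide range of transcript levels. Per kilobase of the principal transcript, Lpl was the highest, with a median of 1156 CPM per kb over all libraries (919 to 1371). It was followed by Fabp5 (582, range 331 to 777 CPM per kb), Cd36 (456, 373 to 538) and Plin2 (196, 152 to 236). Fabp4 (35.4 CPM per kb, 6.15 to 63.6), Acsl1 (34.6, 17.5 to 74.7) and Cpt1a (22.2, 14.9 to 24.9) formed a middle tier. Pparg lay at 5.43 CPM per kb (1.87 to 9.68) and Fabp3 at 1.60 (0 to 8.47). The ranges of Lpl and Plin2 did not touch those of any other member. Fabp5 overlapped Cd36, the 3 genes of the middle tier overlapped each other, and Pparg overlapped Fabp3 and the lowest libraries of Fabp4, as did Fabp3. The receptor was therefore measured with few reads, 8 to 51 per library, and Fabp3 with 0 to 21.

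**Figure D1:**
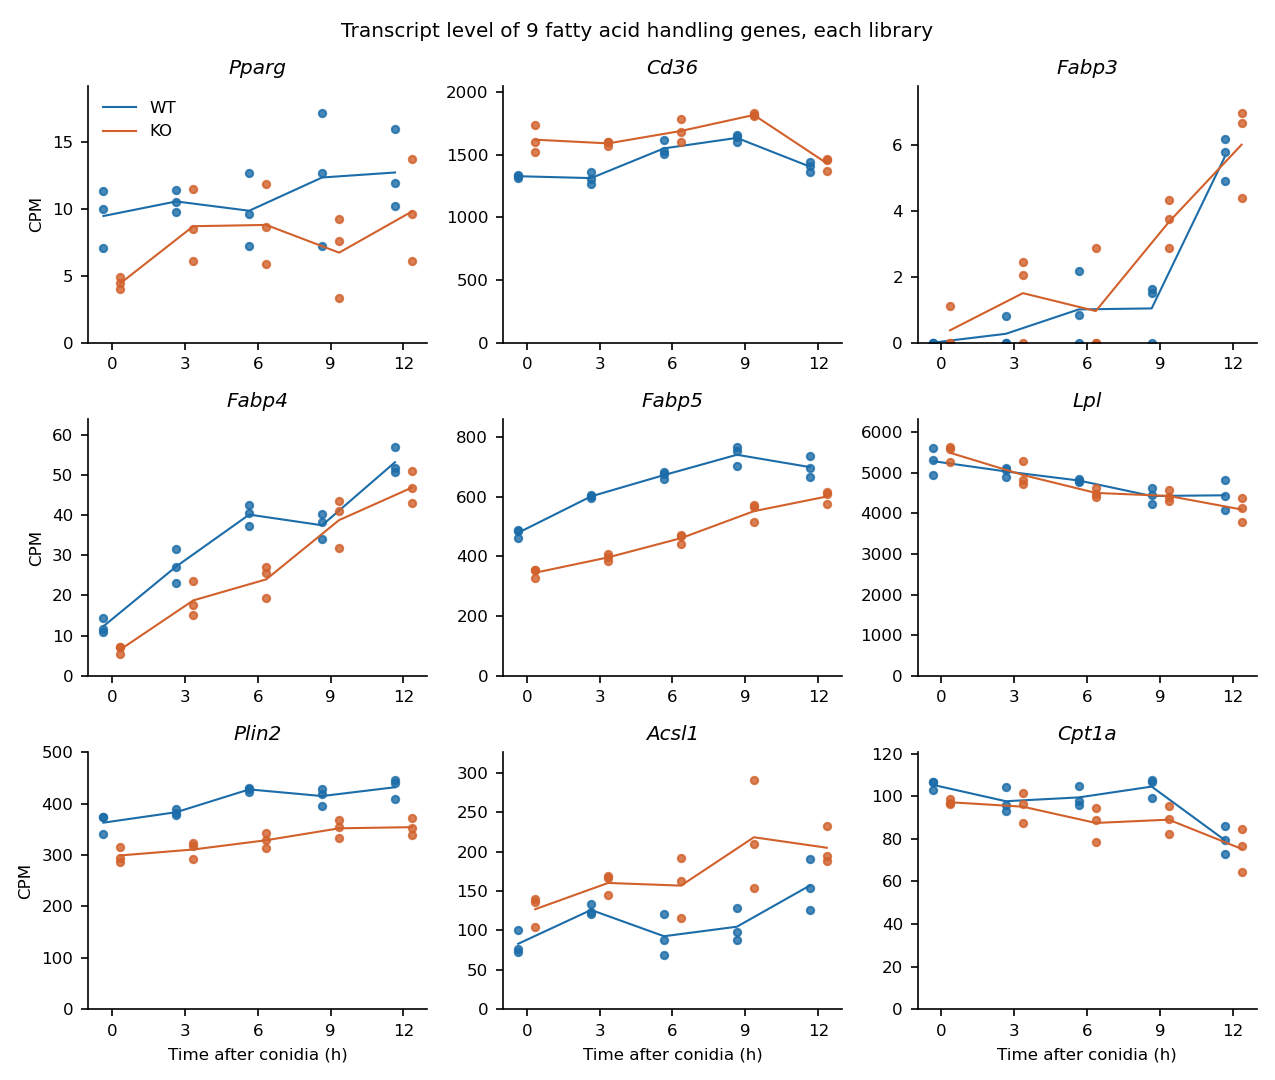
Transcript level (CPM, linear axis from 0) of each of the 9 genes against time after conidia in h; each point is 1 library, lines join the group means, WT in blue and KO in orange. Fabp4 and Fabp5 climb in both genotypes, Lpl descends from 0 h, and the KO points of Fabp5 and Plin2 lie below the WT points at every time.

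After the challenge with conidia Fabp4, Fabp5 and Plin2 rose and Lpl fell, while no change of Pparg passed the test. A gene is said to rise or fall where edgeR's quasi-likelihood test gave an adjusted p (Benjamini-Hochberg) under 0.05 over the 12393 genes with enough reads. All 9 members had enough reads, but Fabp3 reached that only through its later times, so it is described by its reads and left out of the counts of changes over time. In WT, 2 of the other 8 members rose at 3 h and none fell, where 1.02% of all tested genes changed. At 6 h, 4 rose (5.96% of all genes changed), at 9 h 4 rose and 1 fell (10.4%), and at 12 h 4 rose and 2 fell (18.1%). In KO, 2 rose at 3 h (1.22%), 2 rose and 1 fell at 6 h (5.91%), 5 rose and 1 fell at 9 h (10.9%), and 4 rose and 3 fell at 12 h (14.7%). The median log2 change of the 8 at 12 h was 0.34 in WT and 0.47 in KO, beside 0.00 and -0.01 over all genes. Over the same times 6 of the 10 macrophage markers fell and 1 rose at 12 h in WT, and 5 fell and 2 rose in KO. Of 10 tested dendritic markers 4 fell and 2 rose at 12 h in WT, and 1 fell and 1 rose in KO. The dendritic list summed to 3180 to 3345 CPM at 0 h and 2567 to 2950 at 12 h in WT. In KO the dendritic sums were 3288 to 3602 and 3258 to 3350 CPM. Of 6 tested neutrophil markers 1 fell and none rose at 12 h in WT, and likewise in KO. The stromal and endothelial list summed to 20.8 to 23.1 CPM at 0 h and 38.1 to 42.3 at 12 h in WT. In KO its sums were 26.5 to 34.5 and 47.0 to 51.0 CPM, and none of its 5 tested genes was called at 12 h. The alveolar macrophage list summed to 243 to 254 CPM at 0 h and 339 to 353 at 12 h in WT. In KO its sums were 361 to 397 and 466 to 485 CPM. Of its 5 tested genes, 1 rose and 1 fell at 12 h in WT, and likewise 1 and 1 in KO. Olr1 had the highest median of this list, 184 CPM over all libraries (92.3 to 385). The part of these markers in the members' changes was not tested. The 4 times of a genotype are all compared with the same 3 libraries at 0 h, so they are not independent of each other. No unchallenged libraries were taken at the later times. Effects of the conidia and of the hours in culture therefore cannot be told apart in any change from 0 h.

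**Figure D2:**
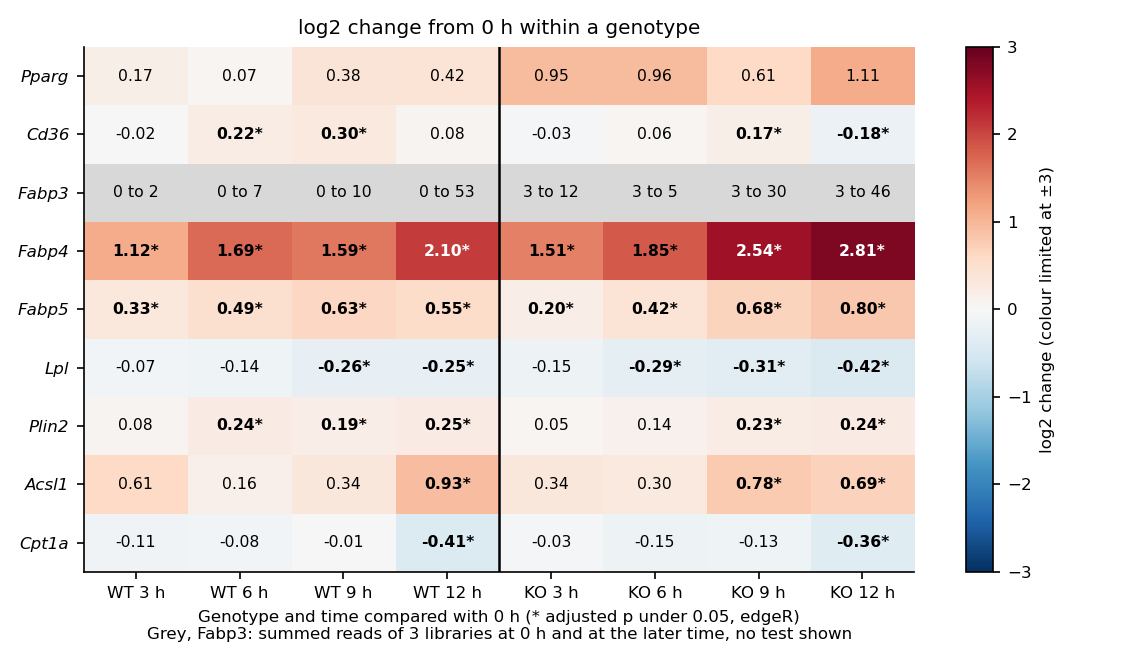
The log2 change from 0 h for each gene (rows) at 3, 6, 9 and 12 h in WT (left of the line) and KO (right), coloured from blue (lower) to red (higher); asterisks mark an adjusted p under 0.05. Fabp4 has the strongest colour in each column, with 2.10 in WT and 2.81 in KO at 12 h; Fabp3 is shown as summed reads with no test, because it had 0 reads in WT and 3 in KO at 0 h.

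Pparg (ENSMUSG00000000440, GRCm38 chr6:115360951-115490399, plus strand), the receptor itself, did not pass the test at any time in either genotype. In WT its 3 libraries gave 7.06, 11.3 and 9.96 CPM at 0 h, 10.5, 9.73 and 11.4 after 3 h, 7.22, 9.63 and 12.7 after 6 h, 17.1, 12.7 and 7.22 after 9 h, and 11.9, 10.2 and 16.0 after 12 h. In KO they gave 4.005, 4.87 and 4.42 CPM at 0 h, 6.11, 8.47 and 11.5 after 3 h, 8.66, 11.8 and 5.85 after 6 h, 9.24, 7.598 and 3.305 after 9 h, and 6.10, 9.57 and 13.7 after 12 h. The KO libraries at 0 h had the smallest SD in CPM (0.434) around the lowest mean (4.43), with 8 to 13 reads each. They lay below all WT libraries of that time, and the later groups overlapped between genotypes. The log2 change at 12 h was 1.11 ± 0.39 (SE) in KO, with an adjusted p of 0.058 in edgeR, and 0.42 ± 0.33 in WT (adjusted p = 0.44). Without KO 12 h replicate 1 the KO change became 1.35 (adjusted p = 0.030). Averaged over the 5 times, Pparg was 1.46-fold lower in KO (log2 difference -0.55 ± 0.16, adjusted p = 0.013 in edgeR), with a lower value in KO at each of the 5 times. At no single time did that difference pass the test, and the smallest adjusted p of the 5 was 0.13, at 0 h.

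Cd36 (ENSMUSG00000002944, GRCm38 chr5:17781690-17888801, minus strand), the scavenger receptor that takes up long-chain fatty acids and oxidised lipoprotein, rose by 9 h and then came down. In WT the libraries gave 1338, 1311 and 1333 CPM at 0 h, 1309, 1363 and 1266 after 3 h, 1505, 1529 and 1615 after 6 h, 1643, 1655 and 1602.05 after 9 h, and 1363, 1412 and 1439 after 12 h. In KO they gave 1520.3, 1734 and 1603 CPM at 0 h, 1600.3, 1597 and 1571 after 3 h, 1681, 1599.9 and 1785 after 6 h, 1805, 1816 and 1828 after 9 h, and 1463, 1369.7 and 1461 after 12 h. The WT libraries at 6 and 9 h lay above all those at 0, 3 and 12 h, and the KO libraries at 9 h above all others of that genotype. The log2 change from 0 h was 0.22 ± 0.04 at 6 h and 0.30 ± 0.04 at 9 h in WT (edgeR adjusted p = 0.0011 and 1.6e-05). In KO it was 0.17 ± 0.04 at 9 h (adjusted p = 0.010) and -0.18 ± 0.04 at 12 h (adjusted p = 0.0043, edgeR), so that KO cells ended below where they began. From 9 to 12 h Cd36 fell 1.16-fold in WT and 1.27-fold in KO. Cd36 was higher in KO by 0.29 ± 0.04 (log2) at 0 h and 0.28 ± 0.04 at 3 h (adjusted p = 6.3e-05 and 7.0e-05, edgeR), and at 12 h the difference was 0.03 ± 0.04. The joint test of whether the genotypes changed differently over time gave an adjusted p of 0.069, and 0.028 without KO 0 h replicate 1 or 0.049 without KO 6 h replicate 3. The KO call at 9 h was lost without KO 0 h replicate 1 (adjusted p = 0.091), the KO call at 12 h without KO 0 h replicate 2 (0.054), and the genotype call at 9 h (0.15 ± 0.04, adjusted p = 0.032) when any 1 of the 6 libraries was left out (0.073 to 0.14).

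Lpl (ENSMUSG00000015568, GRCm38 chr8:68880491-68907448, plus strand), the most abundant member, drifted down. The WT libraries gave 4955, 5304 and 5605 CPM at 0 h, 5124, 4898 and 5081 after 3 h, 4848, 4802 and 4783 after 6 h, 4223, 4623 and 4442 after 9 h, and 4088, 4420.0 and 4833 after 12 h. The KO libraries gave 5259.7, 5643 and 5580.2 CPM at 0 h, 4823, 5284 and 4732 after 3 h, 4489.8, 4629 and 4397 after 6 h, 4312, 4402 and 4576 after 9 h, and 4371, 3782 and 4137 after 12 h. In both genotypes every library at 6, 9 and 12 h lay below every library at 0 h. The fall passed the test from 9 h in WT (log2 change -0.26 ± 0.05 at 9 h and -0.25 ± 0.05 at 12 h, edgeR adjusted p = 0.0023 and 0.0017). In KO it passed from 6 h (-0.29, -0.31 and -0.42, each ± 0.05, at 6, 9 and 12 h, with the lowest edgeR adjusted p, 2.2e-06, at 12 h), a 1.34-fold fall at 12 h against 1.19-fold in WT. No genotype difference in Lpl passed the test, and the averaged difference was -0.04 ± 0.02 (adjusted p = 0.30, edgeR), while without the filter on low counts it was -0.09 (adjusted p = 0.017).

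Fabp3 (ENSMUSG00000028773, GRCm38 chr4:130308595-130315463, plus strand), the binding protein best known from heart and muscle, had few reads or none at 0 h. Its reads in replicates 1, 2 and 3 of WT were 0, 0 and 0 at 0 h, 2, 0 and 0 after 3 h, 0, 5 and 2 after 6 h, 0, 5 and 5 after 9 h, and 21, 20 and 12 after 12 h. In KO they were 0, 3 and 0 at 0 h, 0, 7 and 5 after 3 h, 5, 0 and 0 after 6 h, 11, 12 and 7 after 9 h, and 16, 21 and 9 after 12 h. At 12 h each library of both genotypes held more CPM than any library at 0 h. In WT the level at 12 h was at least 14.5-fold that at 0 h, with a floor of 3 reads over the group. For KO the ratio of 12 h to 0 h was 14.2 and of 9 h to 0 h 8.55, each against 3 reads that all came from KO 0 h replicate 2. No test over time is given, since the reads at 12 h are what brought Fabp3 into the tested genes. At 9 h KO held 30 reads and WT 10, a ratio of 3.48 (1.65 to 7.97), which did not pass the test across genes (adjusted p = 0.32, edgeR). At 12 h the ratio was 1.08 (0.710 to 1.63). A processed copy, Fabp3-ps1, matches Fabp3 over 402 bases at 99.3% identity and held 58 reads in all beside the 168 of Fabp3, so reads of the 2 cannot be fully told apart. Zcchc17, on the other strand and sharing exon sequence with Fabp3, did not pass the test at any time in either genotype, and the 6 cardiac and skeletal muscle markers summed to 10.5 to 21.8 CPM. That sum was 17.7 to 21.8 CPM at 0 h and 13.1 to 16.3 at 12 h in WT, and 10.5 to 15.02 and 14.4 to 19.1 CPM in KO, and its part in the higher reads of Fabp3 at 12 h was not tested.

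Fabp4 (ENSMUSG00000062515, GRCm38 chr3:10204088-10208576, minus strand), the adipocyte and macrophage binding protein and a classical PPAR-gamma target, showed the largest change among members with reads in every library. WT libraries gave 14.5, 10.9 and 11.6 CPM at 0 h, 23.0, 27.0 and 31.6 after 3 h, 37.4, 42.4 and 40.6 after 6 h, 38.2, 40.2 and 33.97 after 9 h, and 57.0, 51.7 and 50.8 after 12 h. KO libraries gave 5.51, 7.12 and 7.07 CPM at 0 h, 17.5, 23.6 and 15.2 after 3 h, 27.1, 19.4 and 25.5 after 6 h, 41.1, 43.4 and 31.8 after 9 h, and 46.6, 43.1 and 50.9 after 12 h. Every challenged library lay above every unchallenged library of its genotype. The rise was 2.18-fold at 3 h, 3.22-fold at 6 h, 3.01-fold at 9 h and 4.28-fold at 12 h in WT, and 2.84-fold, 3.60-fold, 5.835-fold and 7.003-fold in KO (log2 2.10 ± 0.16 and 2.81 ± 0.19 at 12 h, edgeR adjusted p = 1.6e-10 and 7.1e-12). KO cells started lower, by -0.90 ± 0.22 (log2) at 0 h (adjusted p = 0.012, edgeR), were still lower at 6 h (-0.74 ± 0.16, adjusted p = 0.0034), and at 9 h the 2 genotypes overlapped (0.05 ± 0.14). Whether the genotypes changed differently over time was tested jointly and gave an adjusted p of 0.10, and 0.046 without KO 3 h replicate 2. The 0 h difference was lost without WT 0 h replicate 1 (adjusted p = 0.12) or KO 0 h replicate 1 (0.072), and the difference at 3 h (-0.52 ± 0.17, adjusted p = 0.059) passed without WT 3 h replicate 1 (0.037) or KO 3 h replicate 2 (0.012).

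Fabp5 (ENSMUSG00000027533, GRCm38 chr3:10012548-10016607, plus strand), the epidermal-type binding protein and the most abundant of the 3, rose in every challenged group and was lower in KO at every time. The WT libraries gave 489.8, 485 and 462 CPM at 0 h, 601, 597 and 605 after 3 h, 675, 659 and 682 after 6 h, 751, 767 and 702 after 9 h, and 734, 695 and 667 after 12 h. The KO libraries gave 356, 353 and 326 CPM at 0 h, 397, 385 and 407 after 3 h, 468, 442 and 473 after 6 h, 572, 566 and 515 after 9 h, and 617, 576 and 608 after 12 h. At each of the 5 times all 3 KO libraries lay below all 3 WT libraries, and the KO libraries at 12 h, at 576 to 617 CPM, spanned the WT libraries at 3 h. The WT rise was 1.25-fold at 3 h and peaked at 1.55-fold at 9 h (log2 0.63 ± 0.05, edgeR adjusted p = 5.4e-10), with 1.46-fold at 12 h. The KO rise was 1.15-fold at 3 h and went on to 1.74-fold at 12 h (log2 0.80 ± 0.05, adjusted p = 9.7e-13, edgeR). The genotype difference (log2) was -0.47 at 0 h, -0.60 at 3 h, -0.54 at 6 h, -0.42 at 9 h and -0.22 at 12 h, each ± 0.05, with edgeR adjusted p-values from 2.5e-09 at 3 h to 0.0096 at 12 h. Fabp5 was the only 1 of the 9 members whose course differed between the genotypes in the joint test (adjusted p = 0.016, edgeR). That call was lost without WT 12 h replicate 2 (0.054) or 3 (0.060) or KO 12 h replicate 1 (0.063) or 3 (0.057), and without the filter on low counts (0.35). The KO call at 3 h (adjusted p = 0.033) was lost without KO 0 h replicate 2 (0.059) or 3 (0.26) or any KO 3 h replicate (0.061 to 0.18), and the genotype call at 12 h without WT 12 h replicate 1 (0.075) or KO 12 h replicate 2 (0.061).

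Gm6166, a processed copy of Fabp5, matches the Fabp5 transcript over 409 bases at 98.3% identity and held 5519 reads in all, beside 42927 for Fabp5. Its level in WT was 65.1 ± 0.693 CPM at 0 h and 94.1 ± 6.14 at 9 h, and in KO 41.2 ± 3.52 and 68.7 ± 1.68 (SD, n = 3). It rose after 12 h by 0.42 (log2) in WT and 0.89 in KO (edgeR adjusted p = 0.00018 and 4.4e-09), was lower in KO by -0.53 averaged over the times, and its joint test gave an adjusted p of 0.038. It did not pass the test at 3 h in WT (log2 0.30 ± 0.08, adjusted p = 0.085, edgeR) or KO (0.25 ± 0.08, 0.41). Between genotypes at 12 h it did not pass either (-0.19 ± 0.07, adjusted p = 0.28, edgeR). Fabp5 passed in these 3 comparisons with changes of similar size and smaller errors (0.33, 0.20 and -0.22, each ± 0.05). Reads of the 2 near-identical sequences cannot be told apart reliably in such counts. With the reads of the copies added to Fabp5, all its calls kept their side of the threshold.

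**Figure D3:**
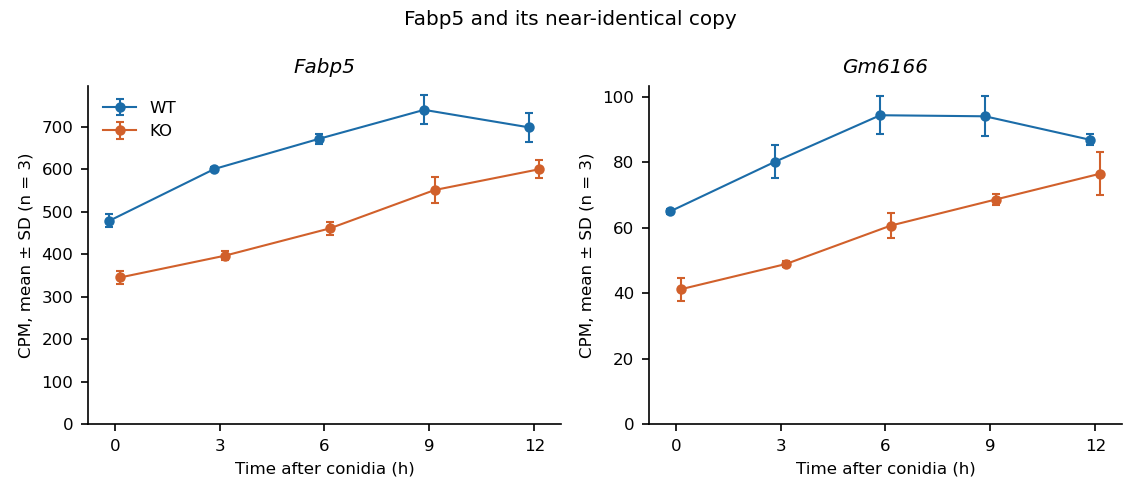
Level in CPM (mean ± SD of 3 libraries, axes from 0 with different scales) of Fabp5 and of its near-identical copy Gm6166 against time after conidia in h, WT in blue and KO in orange. Both panels show the KO means below the WT means at every time, with the smallest gap at 12 h.

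Plin2 (ENSMUSG00000028494, GRCm38 chr4:86648386-86670060, minus strand), the droplet coat protein, rose by less than the binding proteins and was lower in KO at every time. WT libraries gave 374, 374 and 341 CPM at 0 h, 382, 390.3 and 379 after 3 h, 432, 429.7 and 423 after 6 h, 419, 429.6 and 397 after 9 h, and 446, 441 and 409 after 12 h. KO libraries gave 287, 316 and 295 CPM at 0 h, 292, 317 and 323 after 3 h, 329.6, 313 and 344 after 6 h, 355, 368 and 334 after 9 h, and 371, 339 and 353 after 12 h. No KO library reached the lowest WT library of its own time. Plin2 rose 1.18-fold at 6 h, 1.14-fold at 9 h and 1.19-fold at 12 h in WT, and 1.18-fold at both 9 and 12 h in KO (edgeR adjusted p between 0.0012 and 0.018). In KO it was lower by -0.28, -0.30, -0.38, -0.24 and -0.29 (log2, each ± 0.05) at 0, 3, 6, 9 and 12 h, and the edgeR adjusted p of the 5 differences ran from 3.2e-05 at 6 h to 0.0064 at 9 h. The joint test found no difference in course (adjusted p = 0.86). Without WT 0 h replicate 3 the WT calls at 6 and 9 h were lost (0.057 and 0.13), that at 9 h also without WT 9 h replicate 1 (0.065) or 2 (0.10), and the genotype call at 9 h without WT 9 h replicate 2 or KO 9 h replicate 3 (both 0.053).

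Acsl1 (ENSMUSG00000018796, GRCm38 chr8:46471037-46536051, plus strand), which activates fatty acids by joining them to coenzyme A, went the other way between genotypes. WT libraries gave 72.4, 101 and 75.9 CPM at 0 h, 133, 121 and 124 after 3 h, 88.3, 68.3 and 121 after 6 h, 128, 98.0 and 88.1 after 9 h, and 154, 191 and 126 after 12 h. KO libraries gave 140.2, 136 and 104 CPM at 0 h, 166, 145 and 169 after 3 h, 192, 163 and 116 after 6 h, 154, 291 and 210.3 after 9 h, and 232, 189 and 194 after 12 h. The KO libraries lay above the WT libraries at 0, 3 and 9 h, and the spread within groups was wide, from 154 to 291 in KO at 9 h. Acsl1 rose 1.90-fold at 12 h in WT (log2 0.93 ± 0.24, edgeR adjusted p = 0.0078), and in KO 1.72-fold at 9 h and 1.61-fold at 12 h (adjusted p = 0.030 and 0.047). It was 2.09-fold higher in KO at 9 h (log2 1.06 ± 0.23, adjusted p = 0.0061, edgeR) and 1.55-fold higher averaged over the times (0.63 ± 0.10, adjusted p = 1.0e-04), higher at each of the 5 times. The WT call at 12 h was lost without WT 12 h replicate 2 (0.053), the genotype call at 9 h without KO 9 h replicate 2 (0.066), and the KO call at 9 h without KO 0 h replicate 2 (0.058) or 3 (0.13) or KO 9 h replicate 2 (0.21) or 3 (0.054); the KO call at 12 h was lost without any 1 of its 6 libraries (0.064 to 0.19) and with the replicate number as a block (0.05001). The difference at 6 h (0.75 ± 0.24, adjusted p = 0.071) passed without WT 6 h replicate 3 (0.030) or KO 6 h replicate 3 (0.033). A transcript on the other strand, Gm45244, shares exon sequence with Acsl1 and was at most 9.65 ± 4.03 CPM in any group (KO 12 h).

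Cpt1a (ENSMUSG00000024900, GRCm38 chr19:3322334-3385733, plus strand), the gate for long-chain fatty acids into mitochondria, had no change that passed the test up to 9 h and fell at 12 h. WT libraries gave 103, 107 and 107 CPM at 0 h, 104, 95.7 and 92.9 after 3 h, 97.6, 95.8 and 105 after 6 h, 107, 99.3 and 108 after 9 h, and 72.8, 79.5 and 86.0 after 12 h. KO libraries gave 96.6, 98.6 and 96.3 CPM at 0 h, 87.2, 102 and 96.3 after 3 h, 94.7, 78.6 and 89.0 after 6 h, 82.1, 89.4 and 95.4 after 9 h, and 64.5, 84.5 and 76.8 after 12 h. At 12 h all libraries of both genotypes lay below all libraries of their own 0 h. The fall was 1.33-fold in WT (log2 -0.41 ± 0.09, edgeR adjusted p = 0.0011) and 1.29-fold in KO (-0.36 ± 0.09, adjusted p = 0.0051), the latter lost without KO 12 h replicate 1 (0.054). In WT the step from 9 to 12 h alone was -0.40 ± 0.09 (adjusted p = 0.0022, edgeR). In KO that step was -0.23 ± 0.09 (adjusted p = 0.16) and passed without KO 12 h replicate 2 (0.045). The averaged genotype difference was small, -0.13 ± 0.04 (adjusted p = 0.016 in edgeR and 0.054 in DESeq2).

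Between genotypes, the members therefore split. Averaged over the 5 times, 2 were higher in KO (Cd36 and Acsl1) and 5 lower (Pparg, Fabp4, Fabp5, Plin2 and Cpt1a), while 24.9% of all tested genes differed. At 0 h, before any spores, 1 was higher and 3 lower (5.02% of all genes differed). At 3 h, 1 was higher and 2 lower (6.92%), at 6 h 3 were lower (5.78%), at 9 h 2 were higher and 2 lower (5.06%), and at 12 h 2 were lower (1.9%). In the joint test of genotype and time 1 of the 9 members, Fabp5, passed, where 0.888% of all genes did. In the step from 9 to 12 h, Fabp4 rose while Cd36 and Cpt1a fell in WT (10.5% of all genes changed), and Cd36 alone fell in KO (4.49%). The WT rise of Fabp4 in that step (log2 0.51 ± 0.14, adjusted p = 0.016, edgeR) was lost without WT 9 h replicate 3 (0.096) or WT 12 h replicate 1 (0.082). Markers of other cells moved with genotype as well. Averaged over the times, 8 of the 10 macrophage markers and all 6 tested of the 10 neutrophil markers were lower in KO. Higher in KO were 4 of the 5 tested alveolar macrophage markers (Olr1 among them) and 2 of the 5 tested stromal and endothelial markers. Of 10 tested dendritic markers 6 were higher and 1 lower. The macrophage list summed to 2997 to 3138 CPM in the WT libraries at 0 h and 2119 to 2370 CPM in the KO libraries (0 h), and the neutrophil list to 1197 to 1251 and 957 to 999 CPM. Small and structural RNA genes held 20.4 to 20.9% of the reads in the WT libraries at 0 h and 18.3 to 18.7% in the KO libraries (0 h). That share was also lower in KO without overlap at 3 and 6 h, overlapped at 9 h, and was higher in KO without overlap at 12 h. With these genes left out of the totals no genotype call of a member was lost, and Fabp4 at 3 h was called as well (adjusted p = 0.045, edgeR). The part of the other cells in the lower Pparg, Fabp4, Fabp5 and Plin2 of KO was not tested.

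**Figure D4:**
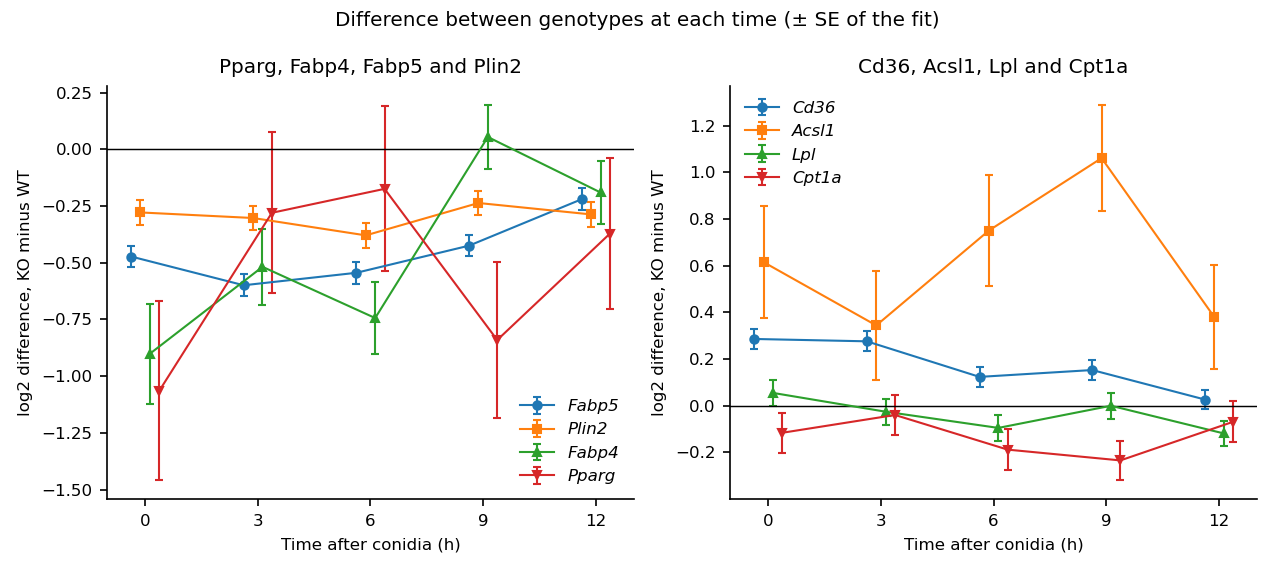
The log2 difference KO minus WT (± SE of the edgeR fit) against time after conidia in h; the left panel shows Pparg, Fabp4, Fabp5 and Plin2, the right panel Cd36, Acsl1, Lpl and Cpt1a, on different vertical scales with a line at 0; Fabp3 is left out because it had 0 reads in WT at 0 h. Plin2 stays between -0.38 and -0.24, Fabp5 moves from -0.60 at 3 h to -0.22 at 12 h, and Cd36 moves from 0.29 at 0 h to 0.03 at 12 h.

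Around the members, 6 lists of 134 other genes of the pathway were counted, of which 97 had enough reads. At 9 h in WT 12 rose and 1 fell, 13.4% of those tested beside 10.4% of all genes. At 12 h in WT 10 rose and 12 fell (22.7% beside 18.1%), with a median log2 change of -0.02 beside 0.00 over all genes. In KO 11 rose and 3 fell at 9 h (14.4% beside 10.9%), and 8 rose and 8 fell at 12 h (16.5% beside 14.7%). These shares are near those of all genes. From 9 to 12 h 5 rose and 16 fell in WT (21.6% beside 10.5%), and 5 rose and 8 fell in KO (13.4% beside 4.49%).

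Of 17 tested receptors and cofactors, 2 rose and none fell at 9 h in WT (10.4% of all genes changed). At 12 h 1 rose and 3 fell in WT (18.1%), and 1 rose and 1 fell in KO (14.7%). From 9 to 12 h none rose and 6 fell in WT (10.5%), and none rose and 2 fell in KO (4.49%). Cebpb, a partner factor of adipogenesis, rose at 9 h in WT (log2 0.75 ± 0.06) and stayed up at 12 h (0.61 ± 0.06, edgeR adjusted p = 4.8e-09). Ppard, the sister receptor, rose after 9 h in WT (0.93 ± 0.23, adjusted p = 0.0077), while in KO its change was 0.19 ± 0.24, and the joint test of genotype and time gave an adjusted p of 0.64. Cebpa fell at 12 h in WT and KO (-0.51 ± 0.12 and -0.47 ± 0.13). In this list 7 genes were lower in KO averaged over the times and 1 was higher, where 24.9% of all genes differed; the list's median difference was -0.10 (log2) beside 0.01 over all genes.

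Of 17 tested other PPAR targets, 4 rose and 2 fell at 12 h in WT (18.1% of all genes changed), and 4 rose and 1 fell in KO (14.7%). Their median log2 change at 12 h was 0.24 in WT and 0.28 in KO, beside 0.00 and -0.01 over all genes. Hilpda, a droplet protein that restrains lipolysis and also responds to low oxygen, went from 20.4 ± 4.27 to 70.6 ± 4.55 CPM in WT (log2 1.80 ± 0.13) and rose by 2.33 ± 0.14 in KO (edgeR adjusted p = 7.4e-13). Olr1, a receptor for oxidised lipoprotein, rose by 1.06 ± 0.08 in WT and 0.84 ± 0.08 in KO, and Tgm2, a transglutaminase, by 0.99 ± 0.09 and 1.31 ± 0.09. Olr1 was higher in KO by 0.74 ± 0.04 averaged over the times. Pltp, a phospholipid transfer protein, and Abcg1, a sterol exporter, fell at 12 h in WT (-1.04 ± 0.21 and -0.22 ± 0.06).

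Of 13 tested genes of uptake and activation, 2 rose and 1 fell at 12 h in WT (18.1% of all genes changed). In KO none rose and 1 fell (14.7%). Fabp7 rose at 12 h in WT (1.08 ± 0.28, from 3.84 ± 0.57 to 8.14 ± 1.48 CPM) and Acsl5 fell (-0.31 ± 0.08). Lipa, the lysosomal lipase, rose at 9 h in WT and KO (0.56 ± 0.07 and 0.49 ± 0.07) and its change at 12 h was -0.02 ± 0.07 and -0.08 ± 0.07. Of 16 tested droplet genes, 3 rose and none fell at 12 h in WT (18.1% of all genes changed), among them Plin3, a relative of Plin2 (0.35 ± 0.10 in WT and 0.55 ± 0.11 in KO). Among the 25 tested oxidation genes, 1 rose and 2 fell at 12 h in WT (18.1% of all genes changed). In KO 2 rose and 2 fell (14.7%). Acadl, a long-chain dehydrogenase, rose at 12 h in WT by 0.41 ± 0.12, while Crat, carnitine acetyltransferase, fell (-0.48 ± 0.11). Of 18 tested synthesis genes, 1 rose and 5 fell at 12 h in WT, where 18.1% of all genes changed, and none rose and 2 fell in KO (14.7%). The list's median log2 change was -0.05 in WT and -0.16 in KO. Fasn, fatty acid synthase, was among the 5 of WT (-0.56 ± 0.16 in WT and -0.52 ± 0.17 in KO), as were Acaca (-0.45 ± 0.09) and Scd2 (-0.34 ± 0.09 after 0.47 ± 0.09 at 9 h).

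**Figure D5:**
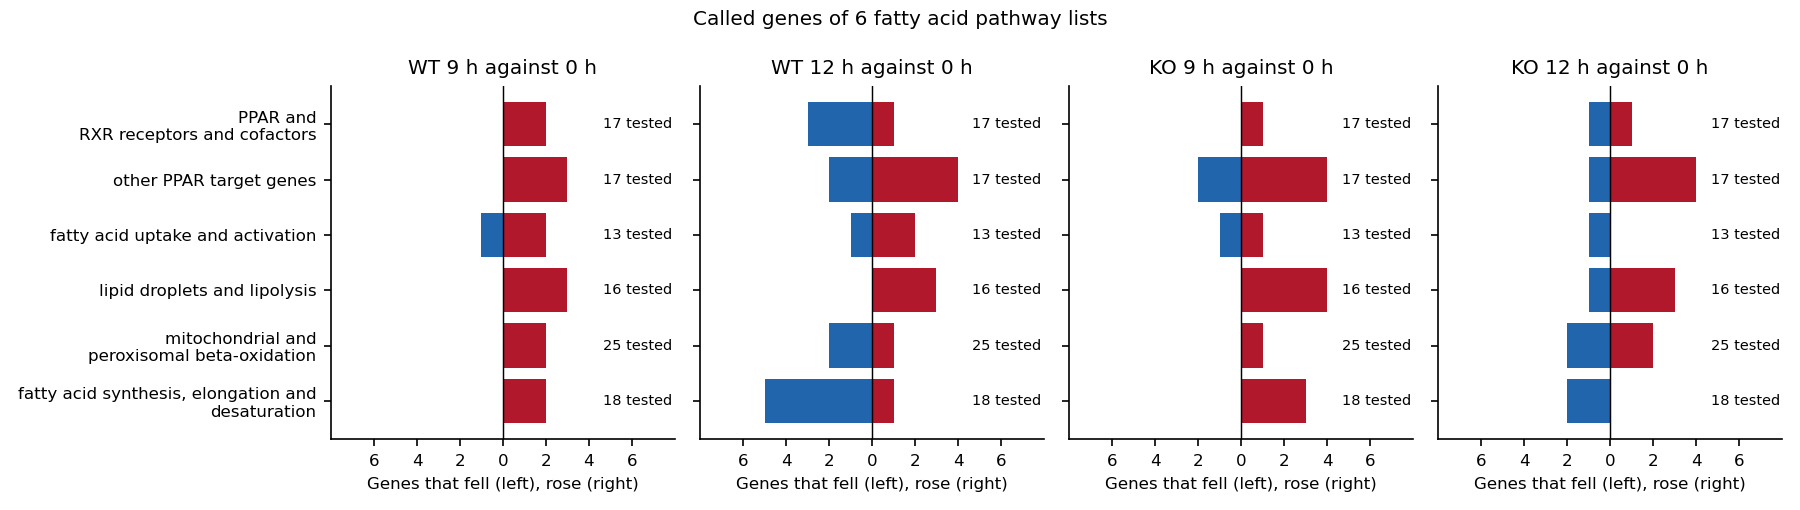
Number of genes that rose (red, to the right) or fell (blue, to the left) against 0 h at 9 and 12 h in WT and KO, for each of the 6 pathway lists, with the number tested at the right edge. In the synthesis list 2 genes rise and 0 fall at 9 h in WT, and 1 rises and 5 fall at 12 h.

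The members did not follow 1 course among themselves. Over the 10 group means of log2 CPM, Fabp5 ran closest to Plin2 (Pearson r = 0.94) and Fabp4 to Fabp5 (0.87), while Fabp4 and Lpl ran opposite (-0.86), as did Fabp3 and Cpt1a (-0.85). These values describe 10 points that share their libraries and the same challenge, and carry no test. Those of Fabp3 rest on few reads, with 0 summed reads in WT and 3 in KO at 0 h. Its log2 CPM in such groups depends largely on the prior count of 2 used for the logarithm. Among 8941 other genes with a mean of at least 5 CPM, the 2 with the most similar course over those 10 means were Lhfpl2 (r = 0.983) and Atf3 (0.982) for Fabp4, and Lgmn (0.982) and Rhov (0.972) for Fabp5. For Plin2 they were Lgmn (0.951) and Hexa (0.947), so that the legumain gene led for both Fabp5 and Plin2. Tars (0.970) and Arpc2 (0.965) were closest to Lpl, Parp1 (0.972) and Sec61a1 (0.969) to Cpt1a, and Uso1 (0.940) and Zfp106 (0.936) to Cd36. Traf6 (0.961) and Strbp (0.960) were closest to Fabp3, Odf2l (0.946) and Nabp1 (0.939) to Acsl1, and Metrnl (0.919) and Hist1h4i (0.897) to Pparg.

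The authors' deposited tables, which list only part of the genes for each comparison, named Fabp4, Fabp5 and Acsl1 at 9 and 12 h in KO. For WT before 12 h they named Fabp4 at 6 h (log2 fold change 1.68), and Fabp4 (1.59) and Fabp5 (0.62) at 9 h. In the authors' deposited table for WT at 12 h, 4 members were listed, with log2 fold changes of 6.28 for Fabp3, 2.10 for Fabp4, 0.92 for Acsl1 and 0.54 for Fabp5. In the authors' deposited tables of WT against KO, Acsl1 was listed at 0, 6 and 9 h with the higher level in KO, and Fabp5 at 3 and 6 h with the lower. Acsl1 at 0 and 6 h is a difference that the test over all 30 libraries did not call (adjusted p = 0.17 and 0.071, edgeR). None of the 9 members stood in the authors' deposited table of WT against KO at 12 h, where Fabp5 and Plin2 passed here. Their differences there were -0.22 and -0.29 (log2), while the smallest size of a listed member in any of these tables was 0.54. Absence from a deposited table is thus not the same as failing the test used here.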

How the data were processed

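RNA of 30 libraries (TruSeq Stranded mRNA, NextSeq) was counted by the authors. Their deposited values are raw counts for Ensembl gene identifiers; how reads were assigned to genes is not stated. The submitters' processing notes name the build GRCm38, DESeq2, StringTie, HISAT2 and Trimmomatic 0.35. In 13 tables deposited by the authors, log2 fold changes and adjusted p-values were read; their 78 per-library columns were not used. The direction of the tables of WT against KO was read from the count table, where it was opposite to KO over WT for each gene in both.

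Counts were fitted in edgeR 4.0.16 (R 4.3.3), with TMM factors, filterByExpr (minimum count 10, 12393 genes kept), 1 coefficient for each of the 10 groups, robust quasi-likelihood tests and Benjamini-Hochberg adjustment over all kept genes; the fit was tested on simulated data. CPM are counts per 1000000 of the TMM-scaled total. DESeq2 1.42.0 was an alternative. Symbols and positions came from GENCODE M21 (54495 of 54532 identifiers matched), lengths from principal transcripts, and near-identical copies from alignments of at least 100 bases at 95% identity. No libraries of the same group were duplicates; pairs across groups were not compared.

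The members and lists were chosen with earlier results of these data known. All 9 members were named. Of each list, genes called at 9 or 12 h could be named, at most 4 for each direction by their change at 12 h in WT; some that the rule allowed are not reported here. The 2 genes with the highest correlation to each member were named. Tried were DESeq2 size factors, the DESeq2 test, no filter, the replicate number as a block, totals without small and structural RNA genes, fits of the compared groups alone, and each library left out; adding the reads of near-identical copies was chosen after seeing the data.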

Additional observations from a re-analysis of the deposited data

Results flagged for a closer look

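In the main fit the course of Fabp5 over the challenge differed between the genotypes. The joint test of the 4 differences in the change from 0 h gave an adjusted p of 0.0157 in edgeR. In WT the log2 change was 0.63 ± 0.05 at 9 h and 0.55 ± 0.05 at 12 h, and in KO 0.68 ± 0.05 and 0.80 ± 0.05. All 3 KO libraries lay below all 3 WT libraries at every time, with the smallest difference at 12 h (log2 -0.22 ± 0.05). The 4 libraries whose removal ended this call were all taken at 12 h, with adjusted p-values of 0.0538 to 0.0625 without them. The call was also lost without the filter on low counts (adjusted p = 0.348, edgeR).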

How the results depend on the processing

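Across the alternatives, 2297 of 2387 recomputed values kept their side of the threshold, 75 lost the call and 15 gained one. No value called in either fit changed sign, but 41 values called in neither did. Counts of called members, Fabp3 included, moved by more than 1.5 times as follows. Without the filter on low counts, 2 members were called at 6 h in WT, 3 at 9 h in WT, 1 at 3 h in KO, 3 at 9 h in KO and 0 in the joint test of genotype and time. In fits of the compared groups alone, 1 was called at 3 h in WT, 0 at 3 h in KO, 3 at 9 h in KO, 1 between genotypes at 9 h and 0 at 12 h. The DESeq2 test called 1 at 3 h in KO. With 1 library left out, the count ranged from 1 to 2 at 3 h in KO, 1 to 2 from 9 to 12 h in KO, 2 to 3 between genotypes at 9 h, 1 to 2 at 12 h, and 0 to 2 in the joint test. Without the filter, calls were lost in WT for Cd36 at 6 h (adjusted p = 0.065), Lpl at 9 h (0.059), Plin2 at 6 and 9 h (0.26 and 0.055) and Fabp4 from 9 to 12 h (0.14). In KO they were lost for Fabp5 at 3 h (0.88), Cd36 (0.13) and Acsl1 (0.13) at 9 h, Plin2 at 9 and 12 h (0.093 and 0.15) and Acsl1 at 12 h (0.22), and between genotypes for Cd36 at 9 h (0.73). Fits of the compared groups alone lost Fabp4 at 3 h in WT and KO (0.057 and 0.059), Plin2 at 9 h in WT and KO (0.064 and 0.052), and in KO Fabp5 at 3 h (0.30), Cd36 at 9 and 12 h (0.077 and 0.12), Acsl1 at 9 h (0.14) and Cpt1a at 12 h (0.073). Between genotypes they lost Fabp4 at 0 h (0.088), Cd36 (0.064), Plin2 (0.083) and Acsl1 (0.15) at 9 h, and Fabp5 (0.15) and Plin2 (0.081) at 12 h. The DESeq2 test lost Fabp5 at 3 h in KO (0.073) and called Acsl1 between genotypes at 6 h (0.022). It gave no adjusted p for Fabp3 at 12 h in KO, a change that is described by its reads only. Totals without small and structural RNA genes called Fabp4 between genotypes at 3 h (0.045).

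Counts over all genes moved as well. Without the filter, they were 58 of 126 at 3 h, 367 of 739 at 6 h, 743 of 1286 at 9 h and 1486 of 2245 at 12 h in WT, and 60 of 151, 456 of 733, 741 of 1346 and 1187 of 1823 in KO. From 9 to 12 h they were 832 of 1305 in WT and 285 of 557 in KO, between genotypes 321 of 622, 451 of 857, 451 of 716, 407 of 627 and 109 of 236 from 0 to 12 h, and 51 of 110 in the joint test. Fits of the compared groups alone gave 46 at 3 h in WT, 27, 334, 779 and 1162 in KO, 242 from 9 to 12 h in KO, and 347, 456, 382, 251 and 84 between genotypes. Leaving out 1 library gave 80 to 106 at 3 h and 469 to 566 at 6 h in WT, 473 to 569, 377 to 549 and 143 to 193 between genotypes at 6, 9 and 12 h, and 62 to 126 in the joint test. The largest median change of all kept genes in any comparison was 0.083 (log2, in size) without the filter, beside 0.020 in the main fit.

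With the replicate number as a block, Acsl1 at 12 h in KO had an adjusted p of 0.05001, and no other call of a member changed. The numbers did not pair the libraries: over 45 same-numbered pairs the correlation of deviations ran from -0.062 to 0.096, and 11 of 30 libraries correlated best with their own number. Pparg, with 8 to 51 reads a library, and Fabp3, with 0 to 21, are limited by depth.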
